A study of Mus musculus with 4 samples.

Results

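The cells described here are bone marrow-derived dendritic cells that were left in medium, measured on 1 of the 4 single-colour arrays of the study. Femur marrow of wild-type (WT) male C57BL/6J mice was grown with GM-CSF at 10 ng/ml in MEM that held 10% FBS, and the cells were collected on day 6. The medium culture received neither of the agents tested. The other 3 arrays hold cells of the same kind given 100 ng/ml LPS, 20 mM L-(+)-LA, or both for 4 h, and they were not used. The labels give no time in medium for the control, no number of mice and no sorting step, so the array stands for 1 unsorted culture with no replicate, and no test between genes or conditions was made. Every gene with a probe was a candidate member. A gene was kept when at least 1 of its probes was marked by the scanner software as well above background, and its brightest such probe set its rank, with rank 1 the brightest. Of 23462 genes with a probe, 15172 (64.7%) were kept.

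GM-CSF is a growth factor that signals through a receptor shared in part with interleukin-3 and drives marrow precursors towards granulocytes, macrophages and dendritic cells. Cultures made with it are used as a source of antigen-presenting cells, and they are known to hold macrophage-like and granulocytic cells beside dendritic cells. Dendritic cells at rest take up material from their surroundings, digest it in acidic lysosomes and load the peptides on MHC class II molecules, while molecules that stimulate T cells are raised when microbial products are sensed.

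Signal is the processed signal of the scanner software, a linear and background-subtracted brightness. The brightness of a spot depends on the probe as well as on the RNA, so a rank is a rank of signal, and no gene's level is set against another's as a fold. The array held 62976 spots, of which 59305 were no controls, and 0 were saturated. Among 308 negative control spots, 5 were well above background (1.62%, exact 95% binomial interval 0.529% to 3.75%). Their median signal was 2.73. The kept genes ran from a signal of 12.0 to 219805, with a median of 140.3. For 284 probes printed 10 times and well above background, the median SD between spots was 0.05 log2 units, and 8 genes lay within that SD of the gene at rank 100. Within the same SD, 77 genes surrounded the end of the brightest 10%, the 1517 genes that held 86.4% of the summed gene signal. Hnrnpa2b1, an RNA-binding protein gene, was the last inside it with a signal of 1578, and Cln3, a lysosomal membrane protein gene, was the first outside with 1577. Spot SD covers printing and scanning on this array only, and the spread between cultures is unknown.

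The top of the ranking was made of genes read by 1 very bright probe. Pak4, a protein kinase that acts on the cytoskeleton, had rank 1 with a signal of 219805 from its only probe. Next came Sp110, a nuclear body protein gene, with 209616, Sgsh, a lysosomal sulfatase, with 205823, Timmdc1, a mitochondrial complex I assembly factor, with 191745, and Skint7, a gene related to a skin T cell selection factor, with 188166. The other probes of these genes were far dimmer. Sp110 had a second probe at 1655, and Sgsh had one at 74.4. Timmdc1 was read at 2.85 by its second probe, which is close to the median of the negative controls, and the second probe of Skint7 gave 5.17.

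The same held through the 40 brightest genes, which ran down to 125405 for Nelfcd, a subunit of a factor that pauses RNA polymerase, at rank 41 (1 gene with a clone name lay among them). Of the 40 genes, 9 had 1 probe. Among the 31 with several probes, 30 had a second-brightest probe over 3 log2 units dimmer than the brightest, and the median gap was 10.87 log2 units. Itsn1, an endocytic scaffold gene, had 10 probes, of which the brightest gave 168611 and the next 228. For Hemgn, a gene of blood cell precursors, the probes gave 172973 and 2.47, the widest gap at 16.10 log2 units. AY036118 had the narrowest gap at 2.07 log2 units, with signals of 166437 and 39632. Thus 0 of the 40 genes had their 2 brightest probes within 2 log2 units.

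The remaining genes of the 40 are listed by kind, since their functions were mixed. The 1-probe genes were Pak4, Ms4a4c, a gene of a membrane-spanning family found on blood cells, Eya1, a developmental phosphatase, Ung, a DNA repair glycosylase, Ephb3, an ephrin receptor, Atxn7, a chromatin complex subunit, Ccdc25, AA536875 and Creb5, a transcription factor. Their signals ran from 137748 for Creb5 to 219805 for Pak4, and no second probe was there to set beside them. Genes with a second probe also well above background were Zcchc9, Spag7, Ubtf, a factor of ribosomal RNA transcription, Arl6ip6, Ulk3, Pdp2, Plekhg3, Tmem239, Slc3a2, Mms22l, Luc7l2, Nrp2, Ldlrad3, Sema4c, Wdr89, Mtfr2, Fam219a, Srek1 and Serpinb8. The least discordant of these was Slc3a2, the heavy chain of amino acid transporters, with 162372 and 4274. In Synpo2l, Btn1a1, a milk fat protein gene, Slc10a1, a liver bile acid transporter, and Ccdc138 the second probe was not well above background, with signals of 2.63, 2.69, 2.83 and 12.9. Their brightest probes gave 147556, 136543, 135281 and 135088, so the 2 readings of 1 gene lay near opposite ends of the array's range. Together the 40 brightest genes of the whole ranking held 26.4% of the summed gene signal.

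**Figure D1:**
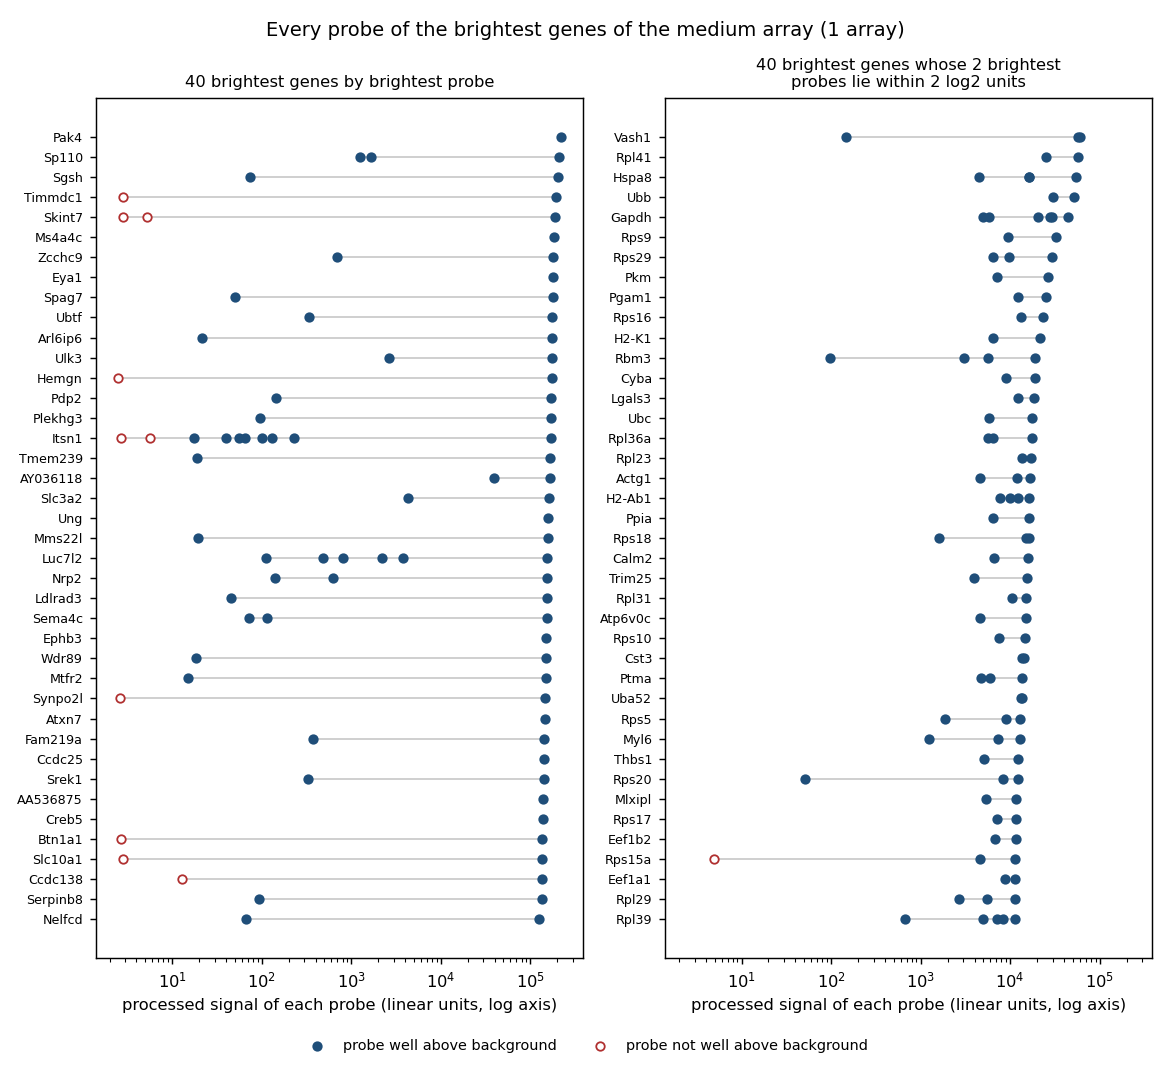
Signal of every probe (x axis, linear units on a log axis) for the 40 brightest genes (left) and for the 40 brightest genes whose 2 brightest probes lie within 2 log2 units (right), 1 row per gene. On the left the brightest probes stand alone at 125405 or above with the other probes mostly below 1000, and on the right the 2 brightest points of each gene lie close together, with a further probe far lower in some genes such as Vash1.

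Disagreement between probes, meaning a gap of over 3 log2 units between the 2 brightest, became rarer down the ranking. Rank and gap both rest on the brightest probe, so they are tied by construction, and a dim gene has little room for such a gap. At ranks 1 to 40 it concerned 29 of 30 genes with several probes (96.7%), at ranks 41 to 100 it concerned 37 of 42 (88.1%), and at ranks 101 to 200 it concerned 36 of 54 (66.7%). The share was 52.6% at ranks 201 to 500 and 37.2% at ranks 501 to 1000, and it was 23.4% below rank 5000, where 956 of 4091 genes had such a gap. In 24 of the 29 cases at the top the 2 brightest probes carried the same transcript identifier. Probe names of the design's A_55 series accounted for 98 of the 100 brightest genes and for 43.7% of all kept genes. What made those probes bright was not tested.

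**Figure D2:**
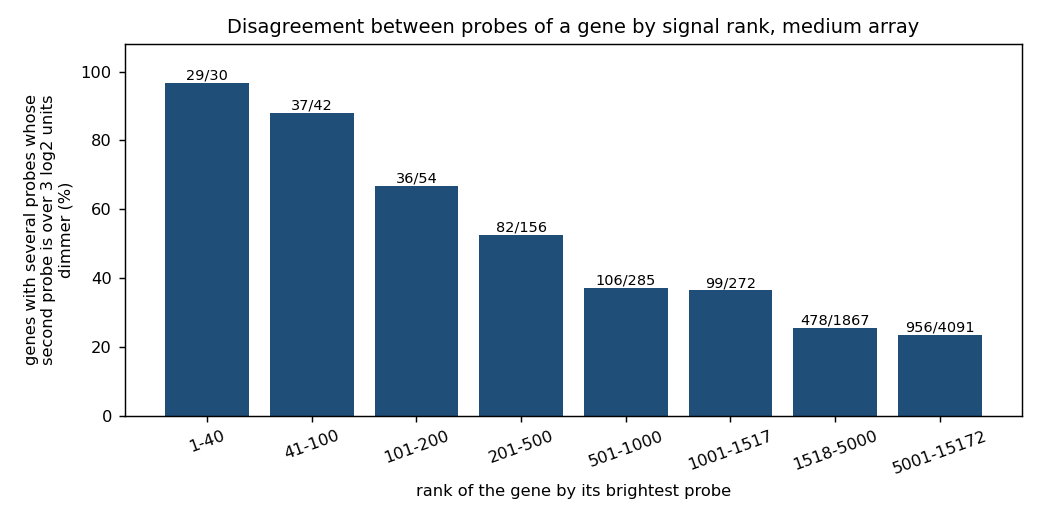
Share of genes with several probes whose second-brightest probe was over 3 log2 units dimmer than the brightest (y axis, percent), by rank of the gene (x axis), with the counts above the bars. The bars fall from 96.7% at ranks 1 to 40 to 23.4% at ranks 5001 to 15172. Rank and gap both rest on the brightest probe and are tied by construction.

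Genes read alike by their 2 brightest probes gave another picture of what was abundant. There were 3753 such genes, with the 2 probes within 2 log2 units. Of these, 321 were in the brightest 10% and 3 among the 100 brightest. The first 40 of them lay between ranks 92 and 323. All 40 were also in the brightest 10% by the second-brightest probe, which follows from how they were picked and is no separate check. Ribosomal protein genes made up 16 of the 40, and 30 were on a list described below. The 40 were set out after their values were seen.

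Named in order of rank, the brightest of these agreeing genes were Vash1, an angiogenesis inhibitor, with probes at 59879.8 and 57145 and the remaining one at 146, and Rpl41, a protein of the large ribosomal subunit, at 57718 and 25189. Hspa8, the constitutive Hsp70 chaperone, gave 53909 and 16454, and Ubb, which encodes ubiquitin, gave 52048 and 30269. Gapdh, an enzyme of glycolysis, was read at 44421 and 29703 by the brightest of its 6 probes. Genes of the endocytic and antigen-presenting system were in the same set. Lgals3, the galectin of macrophages, gave 18308 and 12122. Cyba, a membrane subunit of the phagocyte NADPH oxidase, gave 18996 and 8941. Cst3, the cystatin C inhibitor of lysosomal proteases, gave 14299 and 13677, among the closest pairs of the 40. H2-K1 and H2-Ab1, chains of MHC class I and class II molecules, were there as well.

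For the labelled cell type 3 marker genes were looked up, and all 3 were well above background. So were 64.7% of all genes with a probe, and passing this mark alone does not check a cell type. Itgax, which encodes the CD11c integrin chain of dendritic cells, had rank 3856 with 449 and 211 from its 2 probes, outside the brightest 10%. Cd74, the invariant chain that guides MHC class II molecules, had rank 198 with a signal of 21115. Lyz2, the lysozyme gene of macrophages and granulocytes, had rank 419 with 8258. Cd74 and Lyz2 had 1 probe each and are not particular to dendritic cells. In RNA of a whole culture, fewer cells of a type and less RNA per cell cannot be told apart, and the share of each cell type in the culture was not tested.

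Beyond these, 22 of 24 dendritic cell markers were well above background, beside 64.7% of all genes with a probe, and 4 were in the brightest 10%, beside 6.47% of all genes. Their median rank was 4340.5, with genes not kept placed last, and the median over all genes with a probe was 11731.5. The 4 were Sirpa, an inhibitory receptor of myeloid cells, at rank 482 with 6796, Mgl2, a galactose lectin, at rank 648, Siglech, a lectin of plasmacytoid cells, at rank 649, and Cd24a, a surface glycoprotein, at rank 1149. Only Cd24a among the 3 of them with a second probe was read alike, at 2248 and 1374. Mgl2 gave 4633 and 368, and Siglech gave 4569 and 10.4, the latter not well above background. Clec10a, a lectin close to Mgl2, had rank 2169 with 1022 from 1 probe and 2.63 from the other.

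Several regulators and products of dendritic cells had signals above 140.3, the median of the kept genes. Their ranks ran from 3113 for Ccr7 to 6354 for Ccl17. Irf4 and Irf8, transcription factors that guide dendritic cell subsets, had signals of 526 and 487. Ccr7, the receptor that leads dendritic cells to lymph nodes, gave 621 and 369. The chemokines Ccl22 and Ccl17, which attract T cells, had 222 and 201. The factor Zbtb46, which marks the conventional dendritic cell lineage, was dimmer, at 88.2 and, by its second probe, 5.57. Some markers of the cross-presenting subset and of FLT3-dependent cells were dimmer still. Clec9a, a receptor for dead cells, had 30.9 and 26.4, Flt3, the receptor for FLT3 ligand, had 26.2, Cadm1, an adhesion molecule, had 22.6, and Ly6d had 15.9. Xcr1, the chemokine receptor of that subset, and Itgae, the CD103 integrin chain, were not well above background. Other markers on the list were not so dim, among them Bst2 at rank 2475 and Tcf4 at rank 3810.

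Macrophage and monocyte markers had 13 genes in the brightest 10% (43.3%, beside 6.47% of all genes). Of 30, 26 were well above background (86.7%, beside 64.7%), and the median rank was 2846.5. Itgam, the CD11b integrin chain, led at rank 111, with probes at 47935 and 1809. It was followed by Apoe, the lipid carrier apolipoprotein E, at rank 146 with 31192 and 3506, and Chil3, a chitinase-like protein, at rank 161 with 27252 from 1 probe. Both probes of Csf1r, the receptor for macrophage colony-stimulating factor, were alike at 6088 and 5968, as were those of Cd68, a lysosomal glycoprotein of macrophages, at 4799 and 4403, and of Ly6c1 at 6396 and 3377. Adgre1, which encodes the F4/80 antigen, gave 3838 and 729. The other members of the brightest 10% were read by 1 probe each. They were Lyz2, Gpnmb, a glycoprotein of lipid-laden macrophages, with 8005, Ly6c2 with 7507, Trem2, a lipid-sensing receptor, with 4090.1, and C1qb and C1qc, chains of complement C1q, with 2772 and 1734.

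The remaining macrophage markers named were dimmer. Mrc1, the mannose receptor, had a signal of 79.7, and Mertk, a receptor for dying cells, had 49.0. The dimmest members kept were Arg1, an arginase that, like Chil3, is a marker of alternative activation, at 22.6, and Folr2, a folate receptor, at 17.0. Cd163, Retnla, Timd4 and Vsig4 were not well above background.

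Neutrophil and granulocyte precursor markers were also among the bright genes. All 24 with a probe were well above background (beside 64.7% of all genes) and 12 were in the brightest 10% (50%, beside 6.47%). The median rank was 1857.5. S100a9 and S100a8, the subunits of calprotectin, had ranks 118 and 363 with signals of 44477 and 9888. Csf3r, the receptor for the granulocyte growth factor G-CSF, had rank 120 with 43718. Granule proteins followed, namely Ngp with 14879, Lcn2, an iron-scavenging lipocalin, with 8102, Mmp8, a collagenase, with 5328, Ltf, lactoferrin, with 2455, Mpo, myeloperoxidase, with 2382, and Camp, cathelicidin, with 1751. Mcemp1 was also in the brightest 10% at 6377, as were Stfa2 and Stfa1, protease inhibitors of the stefin family, at 4204 and 1641. The dimmest were Ly6g, the usual surface marker of mouse neutrophils, at 104 and Prtn3, proteinase 3, at 81.2. Of the 12 in the brightest 10%, 11 had a single probe, and Lcn2, the one with a second, was read at 505 by it. Over the whole list 3 genes had several probes, and in 1 of them the gap was over 3 log2 units.

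Other blood cell types had fewer bright genes than the macrophage and neutrophil lists. Of 21 mast cell, basophil and eosinophil markers, 19 were well above background (90.5%, beside 64.7% of all genes). In the brightest 10% were 3 (14.3%, beside 6.47% of all genes), each with 1 probe. These were Prg2, the eosinophil major basic protein, with 4233, and the basophil proteases Mcpt8 with 2522 and Prss34 with 1829. Fcer1a, the IgE-binding chain of the mast cell and basophil receptor, and Mcpt4 were not well above background. Among 24 lymphocyte and NK cell markers, 17 were kept (70.8%, beside 64.7% of all genes) and 0 were in the brightest 10%, with a median rank of 11127.5. Il7r, the interleukin-7 receptor, was the brightest with 1104, ahead of Prf1, perforin, with 868. The genes of CD3 chains, Cd3e, Cd3g and Cd3d, had 146, 40.3 and 26.6. Second probes gave 53.6 for Cd3e and 11.7 for Cd3d, the latter not well above background. Defining genes of these cells lay on both sides of the background limit. Cd8a, Cd2, Ms4a1, Ncr1, Rag1 and Rag2 were among those not well above background. The B cell genes Pax5, Cd79a and Cd79b were kept at ranks 5947, 9638 and 9748, Cd8b1 of cytotoxic T cells at rank 10122, and Klrb1c and Gzma of NK cells at ranks 14202 and 14857.

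Red cell, platelet, stromal and stem cell genes had shares in the brightest 10% at or below the 6.47% of all genes. Of 16 erythroid and megakaryocyte markers with a probe, 13 were kept (81.25%, beside 64.7% of all genes), and Pf4, platelet factor 4, was the 1 in the brightest 10% (6.25%), with 2479. Haemoglobin genes were read at 136 for Hba-a1 and 15.2 for Hba-a2, and those not well above background included Hbb-bt and Gp9. Stromal and endothelial markers gave 13 of 18 kept and 0 in the brightest 10%. Vwf, the clotting factor carrier of endothelium and platelets, was their brightest at 641, and Pdgfra, Cdh5, Col1a1, Tek and Lum were not well above background. All 16 progenitor markers were kept, with a median rank of 9500. Ly6a, which encodes Sca-1, was in the brightest 10% with 2157, while Kit, the stem cell factor receptor, had 339, Cd34 had 191 and Hlf, a stem cell transcription factor, had 12.9.

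**Figure D3:**
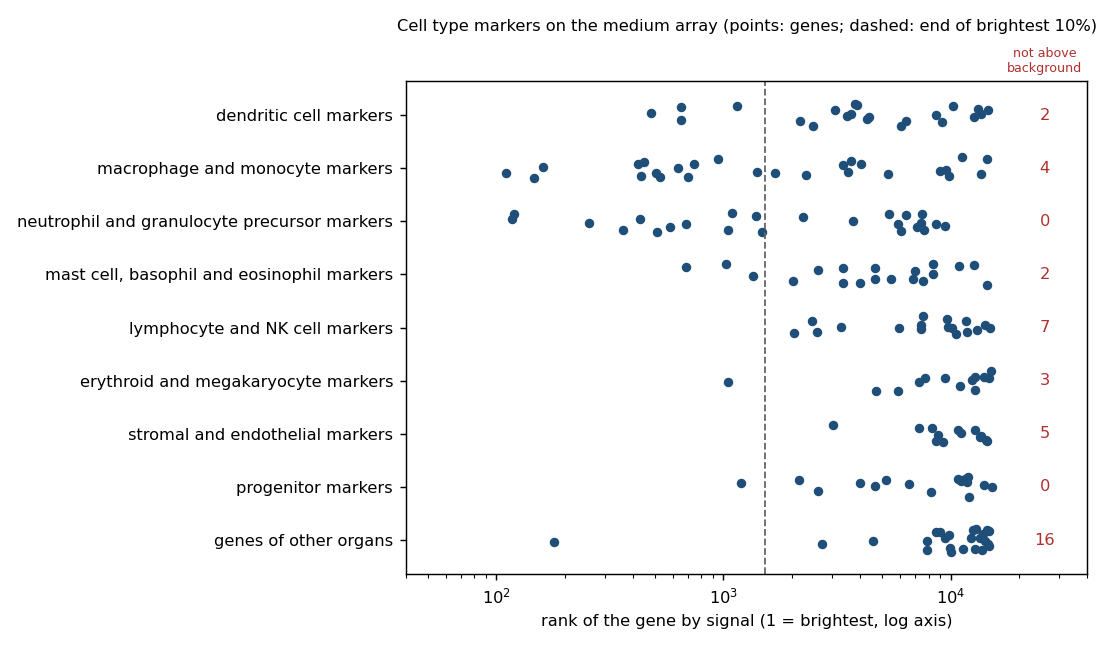
Rank of each marker gene (x axis, log scale, 1 the brightest) for 9 lists of cell type or organ markers, 1 point per gene, with the number not well above background at the right. Macrophage and neutrophil markers reach ranks near 100, while lymphocyte and stromal markers all lie beyond the dashed line that ends the brightest 10% at rank 1517.

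Presentation on MHC class II was well represented. All 19 genes with a probe were well above background (beside 64.7% of all genes) and 9 were in the brightest 10% (47.4%, beside 6.47%). Their median rank was 1642. Ctss, cathepsin S, which trims the invariant chain, had rank 117 with 44614. The chains of the I-A molecule were bright. H2-Ab1 gave 16433 and 12397 from the brightest 2 of its 4 probes, the dimmest of which gave 7749.7, and H2-Aa gave 10749 from 1 probe. H2-Eb1, the beta chain of I-E, had rank 1209 with 2124. H2-Ea, the gene of the alpha chain of I-E, had no probe, so that pair was not read.

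Peptide editors and proteases came next. H2-DMa and H2-DMb2, chains of the molecule that exchanges peptides, had 2511 and 2389.9, and a second probe of H2-DMa gave 12.0. Lgmn, the legumain protease, had 2634, and Ctsl, cathepsin L, had 1637 and 66.3. H2-Oa and H2-Ob, chains of the inhibitor of peptide exchange, were lower at 231 and 329.8. The master regulator Ciita had 457 and 101, and the factors of the enhanceosome that it joins had 817 for Rfxap, 106 for Rfx5 and 49.3 for Rfxank. H2-Eb2, the next dimmest after Rfxank, had 77.9.

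**Figure D4:**
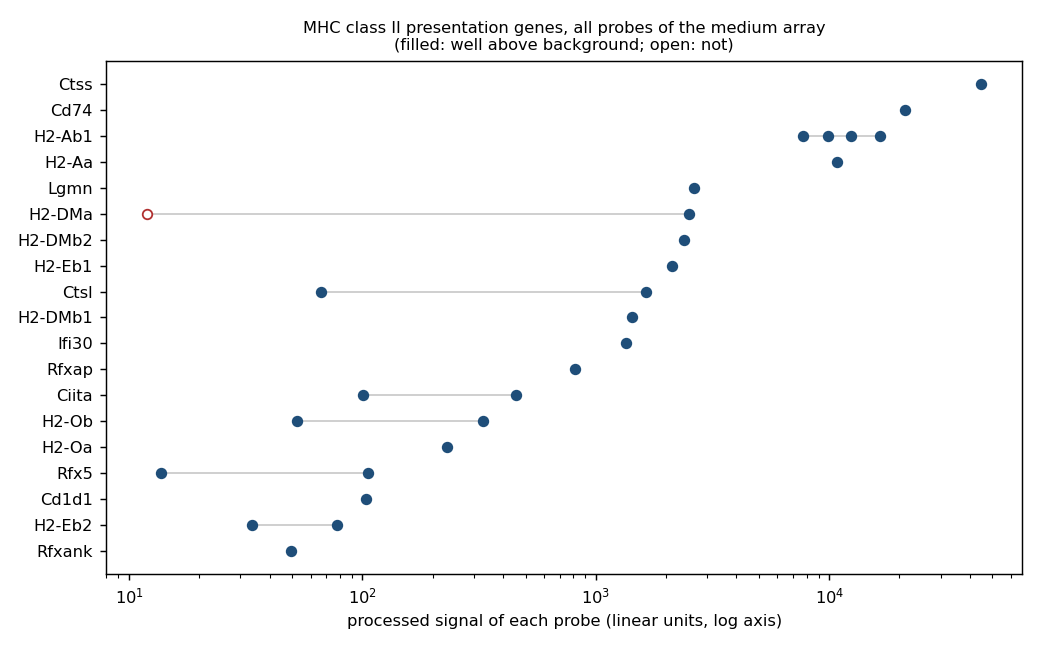
Signal of every probe (x axis, linear units on a log axis) for the 19 MHC class II presentation genes well above background, from the brightest at the top, filled where the probe was well above background and open where it was not. The probes of H2-Ab1 lie together, while H2-DMa and Ctsl have a second probe far to the left.

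Class II promoters are known for a shared upstream block whose Y box is bound by the CCAAT-binding factor NF-Y. The stretches just before the start sites of H2-Aa and H2-Eb1 are printed to show that element in a pair of the bright class II genes. They come from RefSeq sequence of build GRCm38.p6, at chr17:34287824-34287923 on the minus strand for H2-Aa and at chr17:34305767-34305866 on the plus strand for H2-Eb1. Both are 100 bases long, run 5′ to 3′ and end at the base before the start, with the Y box letters CTGATTGG in capitals.
H2-Aa: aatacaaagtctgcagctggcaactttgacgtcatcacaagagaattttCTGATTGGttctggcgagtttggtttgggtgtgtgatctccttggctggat
H2-Eb1: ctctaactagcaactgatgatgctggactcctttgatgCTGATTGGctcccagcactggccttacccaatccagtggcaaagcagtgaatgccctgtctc
The capitals begin 51 bases before the start of H2-Aa and 62 bases before that of H2-Eb1. Searched on both strands in the 250 bases before the start, CTGATTGG was found in 1258 of 32851 windows of all genes (3.83%). Among the 14 class II presentation genes with a window it was found in 4, which were H2-Aa, H2-Eb1, H2-Eb2 and H2-Oa. Of these, H2-Eb2 and H2-Oa were dim, at ranks 9614 and 5895. The brighter Cd74 and H2-Ab1 were not among the 4, and whether they had a window is not reported here. A match describes letters only, and no binding was measured.

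Genes of presentation on MHC class I were mostly in the brightest 10%. All 20 genes with a probe were kept (beside 64.7% of all genes) and 13 were in the brightest 10% (65%, beside 6.47%). The median rank was 865. Heavy chains were at the front, with H2-D1 at rank 172 and 25178, H2-Q7 at rank 191 and 22242, H2-K1 at rank 193 with 21784 and 6473, and H2-Q4 at rank 235 with 16229. Class I genes are near-identical copies in part, and the probe sequences were not used here, so signal may be shared among them. B2m, the common light chain, had 9928, and H2-T23, a nonclassical heavy chain, had 3949. The proteasome activator Psme1 had 14862, and Psmb9 and Psmb8, inducible proteasome subunits, had 5037 and 2769. Of the loading complex, Tapbp, tapasin, gave 13539 and 1151, Pdia3 gave 3547 and 1589.9, Canx gave 1989 and 1209.9, and Calr gave 1923. The peptide transporter was dimmer, at 247 for Tap1 and 854 for Tap2, and Erap1, a peptide-trimming protease, was the dimmest at 41.0.

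Molecules of dendritic cell maturation and T cell stimulation were mostly kept but mostly outside the brightest 10%. Of 23 genes, 21 were kept (91.3%, beside 64.7% of all genes) and 3 were in the brightest 10% (13.0%, beside 6.47%). The median rank was 5047, beside 11731.5 for all genes. The 3 were Cd44, a hyaluronan receptor, with 5096, Cd52, a small surface glycoprotein, with 4303, and Cd274, which encodes the PD-L1 ligand, with 1629. Cd86, a ligand of CD28, gave 868 and 787, and Cd80, the other, gave 418 and 151. Cd83, a maturation marker, had 471. The CD40 receptor gene was near the lower end, with 37.5 for Cd40, just above Tnfsf4, the OX40 ligand, at 25.1. Cd70 and Cd200 were not well above background. On the T cell side, Cd28 was at 567.

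Nearly all lysosomal genes were well above background. Of 41 cathepsins and other hydrolases or their cofactors, 40 were kept (97.6%, beside 64.7% of all genes). The brightest 10% held 16 of them (39.0%, beside 6.47%), and the median rank of the list was 2191. Grn, the progranulin precursor, was first at rank 59, with 96475 and 18221 from the brightest of its 3 probes. The cathepsins Ctsd, Ctsz, Ctsb, Ctsa and Ctsh had 12723, 10653, 7882, 4541 and 1654. Enzymes and helpers of glycolipid breakdown were also in the brightest 10%, with 13019.5 for Gla, an alpha-galactosidase, 9686 for Gm2a, the GM2 activator, 6865 for Hexa, a hexosaminidase chain, and 4030.2 for Psap, the saposin precursor. Npc2, which hands on cholesterol, had 4898, and Man2b1, a mannosidase, had 2169.7. Ctse, an aspartic protease, was the dimmest kept at 15.7, next to Galc, a galactosylceramidase, at 35.0, and Ctsk, the osteoclast cathepsin, was not well above background. Dnase2a, the lysosomal nuclease, was read at 1121 by 1 probe and 3.79 by the other.

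Membrane proteins and the proton pump of lysosomes ranked alongside. All 29 genes were kept (beside 64.7% of all genes) and 13 were in the brightest 10% (44.8%, beside 6.47%). The median rank was 1739. Lamp1, a major membrane glycoprotein, had rank 152 with 29424 and 7027, and Lamp2 had 3012 and 1157. Among pump subunits, Atp6v0c gave 14914 and 4656, Atp6v1b2 gave 8838 and 858, and Atp6v1a gave 5290.2. Atp6ap2, Atp6v0b, Atp6v1g1, Atp6v0d1, Atp6ap1 and Atp6v0d2 were in the brightest 10% with signals from 1984 for Atp6v0d2 to 3757 for Atp6ap2. Cd63, a tetraspanin of late endosomes, had 4560.4. Tfeb and Tfe3, which control lysosomal genes, had 642 and 1352. The dimmest were Ctns, the cystine exporter, at 105 and Atp6v1c1 at 114.

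The receptor for the growth factor in the culture was read clearly. Csf2rb, the signalling beta chain, had rank 423 with 8168 and 5913, Csf2ra, the specific alpha chain, had 1045, and Csf2rb2, the beta chain of the interleukin-3 receptor, had 1374. Jak2, the kinase bound to the beta chain, gave 612 and 434, and the factors it activates had 1489 for Stat5a and 981 for Stat5b. Of 23 genes of this group, 21 were kept (91.3%, beside 64.7% of all genes) and 4 were in the brightest 10% (17.4%, beside 6.47%). Besides Csf2rb these were Mcl1, a survival protein, with 8209, Stat3 with 7303 and 278, and Ptpn6, a phosphatase that restrains myeloid signalling, with 3070.1 and 659. Of the negative regulators, Cish had 189.9, Socs3 had 78.3 and Socs1 had 17.3. Csf2, the gene of GM-CSF itself, had rank 15143 with 12.8, close to the lowest signal kept, and Csf3 and Pim2 were not well above background. Csf1, the ligand of Csf1r, gave 852 and 415.

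Integrin chains were the brightest of the adhesion genes. Of 29 genes, 26 were kept (89.7%, beside 64.7% of all genes) and 10 were in the brightest 10% (34.5%, beside 6.47%). Itgb7, the beta7 chain, had rank 88, with 64373 and 931, and Itgb2, the partner of the CD11 chains, had rank 170 with 26132 from 1 probe. Of its partners, Itgam and Itgal, the LFA-1 chain, were in the brightest 10%, with 3761 for Itgal, and Itgax was outside it. Thbs1, an adhesive glycoprotein, gave 12170.1 and 5063, Itgb1 gave 3439 and 925, Itgb3 gave 1697 and 902, and Cd37, a tetraspanin of leukocytes, gave 2958 and 984. The tetraspanin Cd9 had 5905, and Emb, embigin, had 3905. Icam2, a ligand of LFA-1, and Cd151 were the dimmest at 51.5 and 41.0, and Itgad, Itga2 and Itgae were not well above background.

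Fc receptors, related receptors and their adaptors were spread over the range. Tyrobp, the DAP12 adaptor, had rank 145 with 31777, and Fcer1g, the common Fc receptor chain, had rank 354 with 10128. The adaptor Hcst, which encodes DAP10, was outside the brightest 10% at rank 3163. Of the IgG receptors that use the common chain, Fcgr3 had 3376, while Fcgr4 and Fcgr1 were outside the brightest 10% at ranks 2912 and 3630. Fcgr2b, the inhibitory IgG receptor, which signals without these adaptors, gave 1500.1 and 1078. Trem1, an amplifier of inflammation on neutrophils and monocytes, was read at 21323 by 1 probe and 43.6 by the other. Pigr, the epithelial receptor for polymeric antibodies, showed the same discord with 8290.5 and 5.72. Lilrb4a and Clec12a, inhibitory receptors, had 10395 and 2281. Altogether 16 of 20 genes were kept (80%, beside 64.7% of all genes) and 8 were in the brightest 10% (40%, beside 6.47%). Trem3 was the dimmest kept at 16.5, before it Fcgrt, the neonatal Fc receptor, at 83.2, and Fcamr, Fcrla, Fcer1a and Fcer2a were not well above background.

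Sensors of microbes spanned the range. Of 36 pattern recognition genes, 34 were kept (94.4%, beside 64.7% of all genes) and 7 were in the brightest 10% (19.4%, beside 6.47%). The median rank was 5793. Ly96, the MD-2 protein that binds LPS, had rank 81, with 70325 from 1 probe and 82.1 from the other. Its partners in LPS sensing gave 936 and 298 for Cd14, the LPS carrier on the cell surface, and 498 and 154 for Tlr4, the signalling receptor. Lbp, the serum LPS-binding protein, had 29.4. C-type lectins made up 4 of the 7, with 8063 for Clec4n, which encodes dectin-2, 3839 for Clec4d, 2637 and 997 for Clec4b1 and 1998 and 506 for Clec5a. Tlr9, a DNA sensor, and Sting1, an adaptor of DNA sensing, had 2112 and 1581. Tlr3 and Tlr5, sensors of double-stranded RNA and flagellin, were the dimmest kept at 19.5 and 23.3, and Clec4a2 and Tlr11 were not well above background.

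Complement genes were divided. Of 22, 18 were kept (81.8%, beside 64.7% of all genes) and 7 were in the brightest 10% (31.8%, beside 6.47%). C3, the central component, gave 8462 and 5135, and Cfp, properdin, gave 5135 and 1998, both read alike by their 2 probes. The receptors C3ar1 and C5ar1, for the anaphylatoxins C3a and C5a, had 3442 and 2294. Of the C1q chains, C1qb and C1qc were in the brightest 10% and C1qa was outside it at 552. C1s1 and Cd46 were the dimmest kept at 14.8 and 15.4, and those not well above background included C6, Cfd and Vsig4.

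Chemokine genes had shares near those of all genes. Of 30 with a probe, 21 were kept (70%, beside 64.7% of all genes) and 3 were in the brightest 10% (10%, beside 6.47%), with a median rank of 11139.5. Ccl6 and Ccl9, myeloid chemokines of the mouse, had ranks 306 and 401 with 11761 and 8842, and Cxcl16, a scavenger receptor and chemokine, gave 4424 and 993. Ccl5 lay just outside the brightest 10% at 1559, and Ccl25 gave 705 and 19.2. Cxcl1 and Ccl20, which attract neutrophils and immature dendritic cells, were the dimmest kept at 17.0 and 18.1. Not well above background were Ccl1, Ccl7, Ccl8, Ccl19, Ccl12, Cxcl9, Cxcl15, Cxcl13 and Xcl1, the last being the ligand of Xcr1, which was not well above background either.

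Receptors for chemoattractants gave 22 of 27 kept (81.5%, beside 64.7% of all genes) and 6 in the brightest 10% (22.2%, beside 6.47%). Cxcr4, the receptor for the marrow chemokine CXCL12, had rank 382 with 9314 and 3972, and Cxcl12 itself had 17.3. Fpr2, a formyl peptide receptor, gave 2496 and 579.9 and Cmklr1, the chemerin receptor, gave 1955, and the complement receptors above were also among the 6. Cxcr6, the receptor for CXCL16, gave 285 and 45.4, and Ccr1, a receptor for CCL6 and CCL9, gave 87.0. Ccr3 and Ccr8 were the dimmest kept at 16.8 and 24.1, while Cxcr1, Ccr4, Cxcr5 and Cxcr3 were not well above background.

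Cytokine genes were spread much as all genes were. Of 40, 27 were kept (67.5%, beside 64.7% of all genes) and 4 were in the brightest 10% (10%, beside 6.47%), with a median rank of 10899, beside 11731.5 for all genes. Mif, a factor stored in many cell types, had 5987, Vegfa, the vascular growth factor, gave 5152 and 3484, Spp1, osteopontin, gave 1846 and Il1rn, the interleukin-1 antagonist, gave 1768 and 258. Ebi3, a subunit of interleukin-27, came next with 955. Inflammatory cytokines were kept at lower ranks, with 793 and 671 for Tnf, 725 and 205 for Il1b and 242 for Il12b. Il6 was read at 57.9 by 1 probe and 3.36 by the other. Il1a and Il17a were the dimmest kept at 15.8 and 16.0. Not well above background were Il11, Il33, Il2, Il4, Il5, Lif, Ifnb1, Ifng, Il23a, Il10, Il9, Il7 and Tgfb2.

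Ribosomal protein genes had the largest share in the brightest 10% of the 38 lists. Of 79 cytosolic ribosomal protein genes, 78 were kept and 77 were in the brightest 10%, with a median rank of 392, beside 6.47% of all genes with a probe. By the second-brightest probe 74 were in the brightest 10%. Fau, a ubiquitin-like fusion with Rps30, was first at rank 75 with 75099, and Rpl41, Rpl4 with 40811 and Rps9 with 32218 and 9384 were also near the front. The lowest kept were Rps2 at rank 1673 with 1399 and 958, the only kept member outside the brightest 10%, and Rpl11 with 1592. Rpl37 was not well above background at 2.60. Probes disagreed by over 3 log2 units in 3 genes. Among them Rps27a gave 10364 and 19.1, and Rpl7 gave 9016 and 283. Ribosomal protein genes have many processed copies in the genome, and probes were not checked against them.

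Mitochondrial ribosomal proteins stood lower. All 38 were kept, beside 64.7% of all genes, and the median rank was 5479.5. Only 1 was in the brightest 10% (2.63%, beside 6.47%), Mrpl21 with 3108 and 898. By the second-brightest probe 4 were in the brightest 10%, and by the median of the probes well above background 3. Mrpl11, Mrpl24, Mrps21 and Mrps12 followed at 1377, 1149, 1141 and 954, and Mrps11 and Mrpl28 were the dimmest at 52.5 and 20.7. Translation factors gave 20 of 36 in the brightest 10% (55.6%, beside 6.47% of all genes) with all 36 kept. Tpt1, a growth-related binding partner of elongation factors, had 56929 and 11036, and Eef2, which moves the ribosome along, had 26759 and 5369. Eef1a1 and Eef1b2, elongation factors, were read alike at 11332 and 8794 and at 11551 and 6822. Eif1, an initiation factor, was not, with 11429 and 280.1, and Eif4e, which binds the cap, gave 1349.9 and 7.50. Eif2s1 and Eif4h were the dimmest at 278 and 209.

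Cytoskeletal genes followed, with all 40 kept (beside 64.7% of all genes) and 31 in the brightest 10% (77.5%, beside 6.47%). The median rank was 577. Capza1, an actin capping subunit, had rank 47 with 112558 from 1 probe. Tmsb4x and Tmsb10, thymosins that hold actin monomers, had 40328 and 10583. Lcp1, the actin bundler of leukocytes, gave 25825 and 5601. Cfl1, cofilin, gave 23851 and 3068, and Pfn1, profilin, gave 18954. Actb and Actg1, the cytoplasmic actins, gave 17398 and, for Actg1, 16653 and 11928. Tuba1b, a tubulin, gave 24830.3 and 3111, and Vim, vimentin, gave 10634. Probes were discordant for Cdc42, a GTPase of cell polarity, at 15179 and 474, and for Myh9, nonmuscle myosin, at 9098 and 288. Tpm4, a tropomyosin, and Fscn1, the bundler of mature dendritic cells, were the dimmest at 325 and 379.6.

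Genes of protein folding and breakdown were also bright. Of 30 chaperone genes, all kept (beside 64.7% of all genes), 16 were in the brightest 10% (53.3%, beside 6.47%). The median rank was 1369. After Hspa8 came Ppia, cyclophilin A, with 16213 and 6517, Hsp90b1 with 13879, Hsp90ab1 with 13249 and Cct8, a chaperonin subunit, with 5414 and 587. Hspa5, the chaperone BiP of the endoplasmic reticulum, was read alike at 4942 and 2776, and the heat-inducible Hspa1a and Dnajb1 had 4036 and 3953. Cct3 and Hspb1 were the dimmest at 229 and 16.9. Of 34 proteasome genes, all kept, 18 were in the brightest 10% (52.9%, beside 6.47% of all genes). They were led by Psma7 with 5716, Psmd4 with 5071 and 488, and Psmb9, and the dimmest were Psmd14 at 178 and Psmd11 at 262.

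Glycolysis was covered along its length. Of 29 genes of glycolysis and lactate handling, 28 were kept (96.6%, beside 64.7% of all genes). The brightest 10% held 15 of them (51.7%, beside 6.47%), and the median rank of the list was 1433. In the order of the pathway, signals were 10017 and 9653 for Gpi1, 3356 for Pfkl, 50570.3 for Aldoa, 6428 and 4016 for Tpi1, 12936 for Pgk1, 25044 and 12337 for Pgam1, 4671 and 1819.8 for Eno1 and 26329.5 and 7166 for Pkm. Gapdh led those with agreeing probes. Ldha, which makes lactate, gave 13140.0 from 1 probe and 595 from the other. The glucose transporter Slc2a1 had 3756, and the hexokinase of myeloid cells, Hk3, gave 1889.9 and 1294. Lactate carriers were read at 1479 for Slc16a3, the exporter, 179 for Slc16a1 and 1082 for Bsg, their chaperone. Eno2 and Pfkm were the dimmest kept at 51.9 and 46.1. Hcar1, the receptor for lactate, was not well above background, at 2.60.

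Oxidative phosphorylation gave 16 of 41 genes in the brightest 10% (39.0%, beside 6.47% of all genes). All 41 were kept (beside 64.7%), with a median rank of 2006. By the second-brightest probe 24 were in the brightest 10%, since 1-probe genes keep their signal while others fall. Atp5e, Cox4i1 and Cox6a1 led with 12449.8, 10076 and 8193, followed by Atp5h with 8046 and 4925 and Uqcrb with 6419 and 2604. Uqcrc1 and Ndufs7 were the dimmest at 142 and 351. Targets of the hypoxia-induced factor HIF-1 outside glycolysis gave 19 of 20 kept (95%, beside 64.7% of all genes). The brightest 10% held 8 of these (40%, beside 6.47%). Bnip3 and Bnip3l, which mark mitochondria for removal, had 8559.6 and, for Bnip3l, 3511 and 1494. Ero1a, an oxidase of protein folding, had 8302, Ndrg1 had 3177, Egln3, an oxygen sensor, had 2838 and Ddit4, an inhibitor of growth signalling, had 2365. P4ha2 and Adm were the dimmest kept at 86.8 and 51.3, and Car12 was not well above background.

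Iron, redox and lipid genes each had a few members near the top. Fth1 and Ftl1, the ferritin chains, had 29612 and, for Ftl1, 23786 and 5292, and Hmox1, which degrades haem, had rank 164 with 26597. With Hmox2 they were the 4 of 20 iron genes in the brightest 10% (20%, beside 6.47% of all genes). Of the 20, 18 were kept (90%, beside 64.7%). Cp was the dimmest kept at 43.3, and Cybrd1 and Hpx were not well above background. Antioxidant enzymes gave 11 of 28 in the brightest 10% (39.3%, beside 6.47% of all genes), all 28 kept. They were led by Gpx1, a glutathione peroxidase, with 30677, Hmox1, which is on this list too, Prdx5 with 11363 and Gpx4 with 10661. Prdx1, a peroxiredoxin, was read alike at 5630.3 and 3698. Lipid and foam cell genes gave 25 of 26 kept (96.2%, beside 64.7% of all genes) and 5 in the brightest 10% (19.2%, beside 6.47%). After Apoe these were Fabp5, a fatty acid carrier, with 8742, Pltp with 5282, Soat1, which esterifies cholesterol, with 4074 and 1492, and Lpl with 1702 and 569.5. Fabp3 was the dimmest kept at 48.4, and Ch25h was not well above background.

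Transcription factors of myeloid cells were all kept, 40 of 40, beside 64.7% of all genes. The brightest 10% held 6 of them (15%, beside 6.47%). Cebpb, a factor of macrophages and emergency granulopoiesis, was first with 6750.4, followed by Egr2, Klf6, Rel and Klf2 with 2866, 2524, 2404 and 2135, and Irf5 with 2008 and 91.3. Spi1, which encodes PU.1, had 1335, and Cebpa, the granulocyte factor, had 1269.8. Batf3, needed for the cross-presenting subset, and Id3 were the dimmest at 64.5 and 31.2. Genes of cell division were all kept too, 40 of 40 with 5 in the brightest 10% (12.5%, beside 6.47% of all genes). Hmgb2 and Stmn1, high in dividing cells, were read alike at 7435 and 5273 and at 6672 and 5776, Pcna, the replication clamp, had 5899, Birc5, survivin, gave 4040.3 and 330.0, and Mcm6 gave 2316 and 558. Mki67, which encodes Ki-67, had 1336, and Ccne2 and Mcm2 were the dimmest at 18.6 and 17.0.

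Genes induced by interferon gave 28 of 29 kept (96.6%, beside 64.7% of all genes) and 4 in the brightest 10% (13.8%, beside 6.47%). Ifitm3 and Ifitm1, membrane proteins that hinder virus entry, had 7896 and 6490.3, Oas3 had 2078 and Rsad2, viperin, gave 1900.1 and 128. Isg15 had 702, Gbp5 and Usp18 were the dimmest kept at 66.6 and 44.0, and Ifi44 was not well above background. Matrix enzymes and their inhibitors gave 22 of 24 kept (91.7%, beside 64.7% of all genes). The brightest 10% held 8 of them (33.3%, beside 6.47%), or 5 by the second-brightest probe. Mmp12, the macrophage elastase, had rank 200 with 20946 from 1 probe and 366 from the next. Probes also disagreed for Mmp19 at 3819.5 and 189, Adam8 at 2949 and 271 and Adam10 at 1851 and 157. Cstb, an inhibitor of cathepsins, had 4002. Mmp2 and Serpinb2 were the dimmest kept at 41.3 and 42.2, and Mmp3 and Mmp7 were not well above background.

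**Figure D5:**
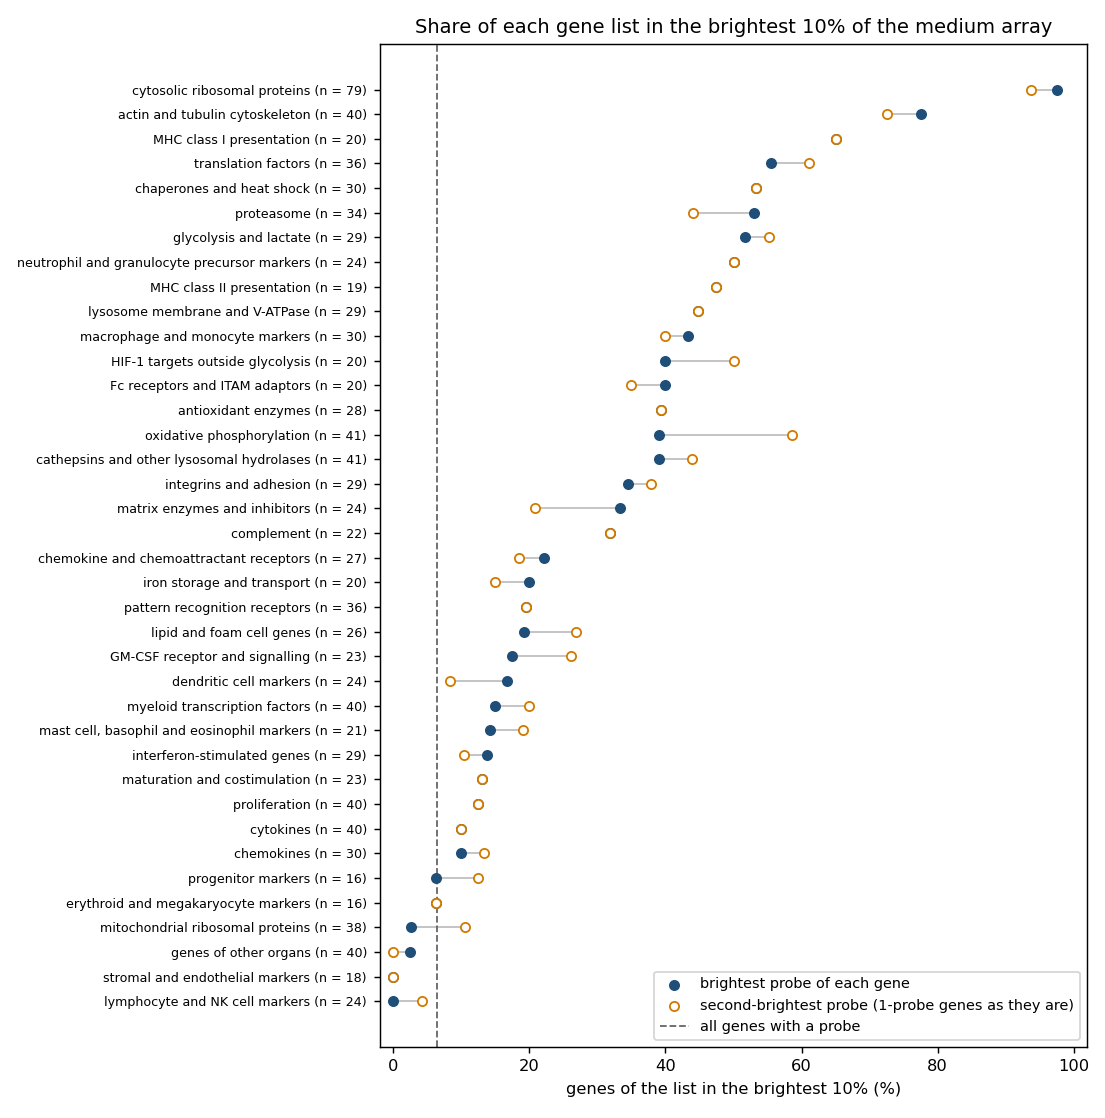
Share of the genes of each of 38 lists that were in the brightest 10% (x axis, percent of genes with a probe), by the brightest probe (filled) and by the second-brightest (open), with the 6.47% of all genes as a dashed line. Ribosomal and cytoskeletal genes stand at the top and lymphocyte, stromal and other organs' genes at the bottom under both choices.

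Genes typical of organs other than marrow were counted for reference. Of 40 such genes 24 were well above background, beside 64.7% of all genes, and 1 was in the brightest 10%, with a median rank of 14313. That gene was Snap25, a synaptic vesicle fusion protein of neurons, at rank 179 with 23916 from 1 probe and 2.40 from the other. Lhb, a pituitary hormone chain, had 747, and Apoa2, a liver apolipoprotein, gave 347 and 7.74. Tnni3, a heart muscle troponin, and Nphs1, a kidney filter protein, gave 130.2 and 130.2. The dimmest kept were Ins1, insulin, at 15.1 and Krt5, a keratin, at 15.6. Those not well above background included Gcg, Tnnt2, Cyp3a11, Ttr, Apoa1, Alb, Myh1, Sftpc, Umod, Krt14, Ckm, Neurod1, Syt1, Gad1 and Zp3.

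Sensory receptor families were mostly dim. Of 1080 olfactory receptor genes 278 were kept (25.7%) and 4 were in the brightest 10% (0.370%), the brightest being Olfr571 with 2742, Olfr744 with 2311 and Olfr187 with 1788, each read by 1 probe. Of 262 vomeronasal receptor genes 47 were kept (17.9%) and 0 were in the brightest 10%, with Vmn2r111, Vmn2r3 and Vmn2r4 the brightest at 160.1, 159.7 and 123. Of 38 taste receptor genes 12 were kept (31.6%) and 0 were in the brightest 10%, with 465 for Tas2r109, 161 for Tas2r134 and 112 for Tas2r113. Nearly all of these genes have 1 probe. Among all genes with 1 probe 54.4% were kept and 4.40% were in the brightest 10%, and among genes with several probes 84.4% were kept and 10.4% were in the brightest 10%. Both shares were thus higher for genes with several probes.

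Over all 38 lists, 1073 genes were named, 1060 had a probe and 971 were well above background. Of 417 list genes that were kept and had several probes, 85 had a second-brightest probe over 3 log2 units below the brightest. For those 85, as for the genes at the top of the ranking, the rank is that of 1 probe.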

How the data were processed

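RNA of 1 medium culture was read on 1 Cy3 array. Per the file headers, the deposited intensity is the signal as processed by version 12.0.3.1 of the Feature Extraction software, linear and background-subtracted, while version 11.5.1.1 is what the submitters' processing notes name. Well-above-background, saturation and outlier marks were deposited as other values of 0 or 1 and used as they are. In the authors' deposited value table, 31529 spots of this array had an intensity, which equalled the processed signal times 6.67 at every spot, with a median of 1038; its scale is thus linear, and it is not centred. No reading had to be turned, since the array has 1 colour.

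Here 154 spots with an outlier mark were left out and log2 signal was averaged over the spots of a probe. A probe counted as well above background when over 50% of its spots did. Transcript identifiers gave 33766 of 56602 probes 1 symbol of the RefSeq gene table, 0 several and 22836 none. The header names build mm9 and the gene table and promoters are of GRCm38.p6, so no coordinate of the array was used. The brightest probe above background stood for a gene. The brightest 10% is the first 1517 of the 15172 genes kept. Shares are of all genes with a probe. With 1 array there was no test, and the only spread measured was that between spots. The ranking steps were run on spots set to known signals without noise. That run checks the computation only, not how far ranks vary between probes or cultures.

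The members, the 38 lists and the rule for named genes were chosen with earlier results of these data known. The rule took the 40 brightest genes with an ordinary symbol, 3 marker genes and, per list, the 5 brightest, those in the brightest 10%, the 2 dimmest kept and those not well above background. It further took genes with discordant probes, receptor or ligand partners, and the 3 brightest of each sensory receptor family. In long lists only some of these are named, a few genes counted in the lists are not reported here by name, and genes outside the rule were named after their values were seen.

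Alternatives were normexp background correction (limma 3.58.1 in R 4.3.3, offset 50), no background subtraction, and a looser or no filter on dim spots. Others were the median of a gene's probes well above background, and the mean of all its probes. The rest were outlier spots kept, the authors' table, the brightest spot of a probe, and the brightest 5% or 20%. Normexp was run on the median spot signal, since the mean was not among the columns used here. Ranking by the second-brightest probe, and ranking only genes with agreeing probes, were added after seeing the data. Python 3.11.15 with numpy 2.4.6, pandas 2.3.3, scipy 1.17.1 and matplotlib 3.10.9 did the rest.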

Additional observations from a re-analysis of the deposited data

Results flagged for a closer look

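Probes with no gene symbol entered no ranking, yet many of them carried signal. Of 22836 such probes, 12312 (53.9%) were well above background, beside 64.0% of probes with a symbol and 1.62% of negative control spots. Among the 100 brightest probes of the array 28 had no symbol. The genes they read are unnamed here, so the brightest named genes are the brightest only among the probes that matched a symbol.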

How the results depend on the processing

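With 1 array, depth is set by signal over background: probes below a signal of about 12.0 have no order, and the number of arrays limits precision. No paired analysis was possible because only 1 array, without replicates, was described. The count of 15172 genes became 23462 with no filter on dim spots. By the second-brightest probe, 2 dendritic cell markers were in the brightest 10% instead of 4. For mast cell, basophil and eosinophil markers the count was 4 instead of 3. Of MHC class II presentation genes, 4 were in the brightest 5%. When only the 3753 genes with agreeing probes were ranked, the count above background and in the brightest 10% was 6 and 1 for dendritic cell markers, 6 and 4 for macrophage markers, 0 and 0 for neutrophil markers, 2 and 1 for MHC class II genes, and 41 and 41 for ribosomal protein genes; fewer genes enter by construction, 1-probe genes being left out. Normexp, no background subtraction, outlier spots kept and the brightest spot of a probe moved 0 of 38 list counts in the brightest 10% by over 1.5 times. The median and the mean over probes moved 3 and 6, the second-brightest probe 6, the looser filter 4 and no filter 8, and the authors' values moved 1. The brightest 20% and the brightest 5%, which widen or narrow the class by construction, moved 19 and 18. Of the 40 brightest genes, 37 were in the brightest 10% by the median of their probes well above background. A gene with 1 such probe keeps its signal there, however dim its other probes. By the mean over all probes 33 were in it, and by the second-brightest probe 14, of which 9 have 1 probe.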

Other observations

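Some bright genes outside the lists were singled out after their values were seen. Rn28s1, the large ribosomal RNA, had rank 98 with a signal of 57023 from 1 probe, although the labelling method is meant for messenger RNA. The small structural RNAs Rn7s1 and Rn4.5s had ranks 107 and 112 with 50243 and 46933. Nanog, a transcription factor of embryonic stem cells, had rank 71 with 79057 from 1 probe and 3.42 from the other. Lyz1, the lysozyme of gut Paneth cells and a close copy of Lyz2, had rank 606 with 5096, and signal shared between the copies was not tested.

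By annotated class, 13853 of the kept genes were protein-coding, with 1427 of them in the brightest 10%. There were 1128 long noncoding RNA genes, with 55 in the brightest 10%, and 151 transcribed pseudogenes, with 30 in the brightest 10%. Over all 15172 kept genes 1517 were in it, which is 10% by construction. Of 54 keratin-associated protein genes, which build hair, 29 were well above background (53.7%, beside 64.7% of all genes with a probe). In the brightest 10% were 3 (5.56%, beside 6.47%). Of the 54 genes, 52 have 1 probe, and among all genes with 1 probe these shares were 54.4% and 4.40%. Krtap20-2 was the brightest of them at 3814, and its second probe gave 378.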
